A study of Mus musculus with 36 samples.

Results

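The 10 genes described here encode the protein parts of plasma lipoproteins made by the liver and the transfer protein that loads one of them with lipid: Apoa1, Apoa2, Apoa4, Apoa5, Apob, Apoc1, Apoc2, Apoc3, Apoe and Mttp. They were chosen by symbol, as the non-control probes of an Agilent mouse array whose gene name equals one of these names, which gave 18 of the array's 56605 probes and 10 of its 37061 named genes. All 10 genes were among the 24097 tested. RNA was from male C57Bl/6J-background mouse liver taken at ZT16, 4 h into the dark period, and each of the 36 arrays measured 1 RNA sample in 1 colour. CTRL mice were compared with AAKO mice, which lack ATGL, the first lipase of fat breakdown in adipocytes, in white adipose tissue. Each genotype was studied in 3 conditions with 6 arrays each, namely fed freely, fasted for 24 h, or fed and given by gavage 3 mg/kg of CL316243, a compound that activates the beta-3 adrenergic receptor. The gavage, in a cellulose vehicle, was at ZT10; the labels do not say whether the other groups received vehicle. They give no ages, and they do not name the promoter or Cre line behind the deletion, so which other tissues lost ATGL was not assessed here. The arrays are numbered as replicates without a statement on litters or cages, so p-values measure the spread between these samples.

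Very-low-density lipoprotein (VLDL) carries triglyceride out of the liver. Its backbone is apolipoprotein B, encoded by Apob, and the microsomal triglyceride transfer protein, encoded by Mttp, adds lipid to that backbone in the endoplasmic reticulum. Smaller, exchangeable apolipoproteins join the particle: APOC2 activates lipoprotein lipase, APOC3 inhibits it, APOA5 favours it, and APOE is a ligand for uptake receptors. APOA1 and APOA2 are the main proteins of high-density lipoprotein. Fasting normally sends fatty acids from adipose tissue to the liver, and ATGL is needed for most of that release.

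Several of the results below turn on single probes, and some genes were read by a brighter and a dimmer probe with unequal results. The dim Mttp probe and the dimmest Apoc3 probe, described below, are not in this list. Sequences of some of the other probes are given first. Each is 60 bases, 5′ to 3′, as deposited on the array, with mm9 positions as the files give them. The files do not say in which exon or part of a transcript a probe lies.
Apoa4 (chr9:46051206-46051266, plus strand): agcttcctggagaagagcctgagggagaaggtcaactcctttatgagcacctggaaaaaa
Gm10680, the named gene nearest to Apoa4 in pattern (chr9:46050711-46050770, minus strand): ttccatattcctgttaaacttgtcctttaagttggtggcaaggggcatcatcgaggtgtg
Mttp, brighter probe (chr3:137753868-137753927, minus strand): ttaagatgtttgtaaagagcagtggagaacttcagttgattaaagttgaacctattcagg
Apoc2, dimmer probe (chr7:20258597-20258656, minus strand): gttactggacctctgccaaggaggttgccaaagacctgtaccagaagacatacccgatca
Apob, dimmer probe (chr12:7992933-7994547, plus strand): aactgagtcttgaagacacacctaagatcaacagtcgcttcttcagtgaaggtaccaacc
The dimmer Apob probe spans 1615 genomic bases with 60 letters, so its match is split.

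All values below are log2 signals relative to the 75th percentile of the same array, so that 0 is that percentile and 1 unit is a doubling of the signal. A level of 1 gene can be compared between samples but not with the level of another gene, whose probe differs. Differences are log2 fold changes with their standard error (SE) from 1 limma fit to all 36 arrays, and a gene was called changed at a Benjamini-Hochberg adjusted p under 0.05 over all 24097 genes. In whole liver, fewer cells of a type and less RNA per cell cannot be told apart. Fed groups belong to the second of the labelled experiments and fasted and CL316243 groups to the first, so any difference from fed mice is also a difference between experiments. The difference between genotypes in 1 condition does not have that limit.

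In fed mice the genotypes could not be separated on any of the 10 genes: limma called 0 of 10, against 0.0788% of all genes tested (19 genes, with 1637 at an unadjusted p under 0.05). After the fast, 7 of the 10 were lower in AAKO liver, 0 were higher and 3 were not called. Of all genes tested, 49.2% were called in that comparison and 27.3% were called lower. The median change of the 10 was -0.36, beside -0.03 over all genes. The arrays of AAKO and CTRL did not overlap for those 7 genes, whereas they did not overlap for 21.2% of all genes. After CL316243, Apoa4 and Mttp were lower in AAKO liver and 8 were not called, against 24.6% of all genes called and 11.6% called lower. For these 2 genes, too, the arrays did not overlap (11.3% of all genes). The share of the 10 genes called after CL316243 was thus close to the background and the share after the fast was above it.

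**Figure D1:**
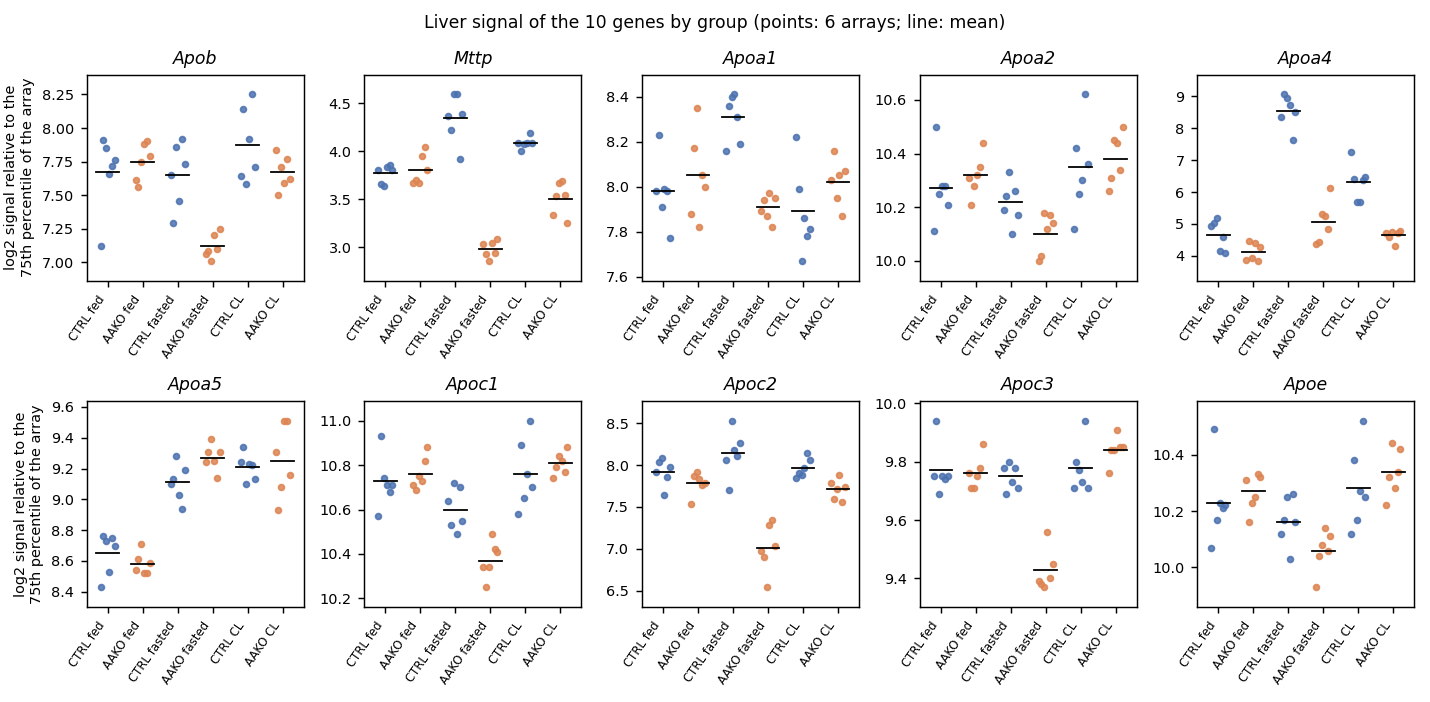
Signal of each of the 10 genes on every array (log2 relative to the array's 75th percentile), by genotype and condition, 6 arrays a group. The fasted AAKO arrays lie below the fasted CTRL arrays for Apoa4, Mttp, Apoc2, Apob, Apoa1, Apoc3 and Apoc1, while Apoa5 shows fasted and CL316243 arrays above fed arrays in both genotypes.

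One array stood apart. On the first principal component of the tested genes, which held 41.8% of the variance, replicate 2 of the fasted CTRL group scored 80.9, whereas the other 5 fasted CTRL arrays scored 16.7 to 28.9 and fasted AAKO arrays 102 to 110. It had the highest Apoa4 of its group (9.06) and the lowest Apoc2 (7.70), Apob (7.29) and Apoc3 (9.69). Without it, the same 7 genes were called lower in fasted AAKO liver, by 3.37 for Apoa4, 1.39 for Mttp, 1.22 for Apoc2, 0.59 for Apob, 0.38 for Apoa1, 0.33 for Apoc3 and 0.24 for Apoc1 on the log2 scale.

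Mttp, whose product is required for VLDL assembly, separated the genotypes in both stimulated conditions. Its signal in fed CTRL liver ran from 3.64 through a median of 3.81 to 3.86, and in fed AAKO liver from 3.67 through 3.76 to 4.04. Fasted CTRL arrays ran from 3.92 through 4.38 to 4.59 and fasted AAKO arrays from 2.86 through 2.99 to 3.09. On this probe the fast was accompanied by opposite shifts: every fasted CTRL array lay above every fed CTRL array, and every fasted AAKO array below every fed AAKO array. CL316243 gave 4.00, 4.09 and 4.19 in CTRL and 3.25, 3.54 and 3.69 in AAKO as lowest, median and highest. Those 2 groups did not overlap either.

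The fasted genotype difference of Mttp was -1.36 ± 0.09 (SE, n = 6 a group; 2.57-fold lower in AAKO; limma adjusted p = 2.13e-13). After CL316243 it was -0.58 ± 0.09, or 1.49-fold (limma adjusted p = 1.30e-05). The fed difference was 0.04 ± 0.09. The genotype difference itself differed between fasted and fed mice by -1.40 ± 0.13 (limma adjusted p = 1.72e-09) and between CL316243 and fed mice by -0.61 ± 0.13 (limma adjusted p = 0.00128). Within the 2 wash batches of the labels, the fasted difference of Mttp was -1.34 and -1.38 and that after CL316243 was -0.68 and -0.41, all called. The CL316243 difference from the fed difference was called within wash batch 1 (-0.85) and not within wash batch 2 (-0.31, limma adjusted p = 0.283). The order of the Mttp group medians was fasted CTRL, CL316243 CTRL, fed CTRL, fed AAKO, CL316243 AAKO and fasted AAKO. Of the neighbours in that order, fed CTRL and fed AAKO could not be separated, fed AAKO and CL316243 AAKO overlapped, and fasted CTRL and CL316243 CTRL differed by 0.26 with overlapping arrays (limma adjusted p = 0.0234). The last call was kept under 21 of 28 alternatives.

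A second Mttp probe gave no such difference (-0.08 after the fast, limma adjusted p over all probes = 0.805). That probe was dim, with intensities of 22.8 to 41.5 over the single arrays against 2130 to 7230 for the brighter one. The dim probe passed the background mark on 27 of 36 arrays. Of its 60 bases, 37 lie before the RefSeq start site of Mttp and 23 after it. With the mean of both probes as the value of Mttp, the rise in fasted CTRL liver was 0.19 and not called (limma adjusted p = 0.291), while the fall in fasted AAKO liver was -0.53 and called (limma adjusted p = 0.00148). The genotype difference was then -0.72 after the fast and -0.50 after CL316243, both called, and the CL316243 difference from the fed difference was -0.51 and not called (limma adjusted p = 0.116).

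Apob, the structural protein of VLDL, was lower in fasted AAKO liver by a smaller amount than Mttp. Its level ran from 7.29 through 7.69 to 7.92 in fasted CTRL liver and from 7.01 through 7.09 to 7.25 in fasted AAKO liver. Fed arrays gave 7.12, 7.74 and 7.91 in CTRL and 7.56, 7.77 and 7.90 in AAKO, and CL316243 arrays 7.58, 7.81 and 8.25 in CTRL and 7.50, 7.66 and 7.84 in AAKO. Fasted AAKO was the lowest group and overlapped fed CTRL through a single array, replicate 1 of fed CTRL at 7.12. The other 5 groups overlapped one another. The fasted genotype difference was -0.53 ± 0.10 (1.45-fold, limma adjusted p = 4.66e-05), and it differed from the fed difference by -0.61 ± 0.14 (limma adjusted p = 0.00109). It did not differ beyond the threshold from that after CL316243 (-0.30 ± 0.14, limma adjusted p = 0.115) on the brighter probe, whereas the dimmer probe gave -0.54 (limma adjusted p over all probes = 0.00109) and the mean of both -0.42 (limma adjusted p = 0.0141). Within wash batch 1 the Apob difference after the fast was -0.72, and within wash batch 2 it was -0.35 and not called (limma adjusted p = 0.0981). The dimmer Apob probe gave -0.68 (limma adjusted p over all probes = 1.15e-07).

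Apoa4 had the largest change of the 10 genes. APOA4 is an apolipoprotein of intestine and liver that associates with triglyceride-rich particles. Its signal was 4.09, 4.76 and 5.19 (lowest, median and highest) in fed CTRL liver and 7.63, 8.62 and 9.06 in fasted CTRL liver. AAKO arrays gave 3.84, 4.10 and 4.46 when fed and 4.37, 5.05 and 6.14 when fasted. No fasted AAKO array reached the lowest fasted CTRL array. CL316243 arrays ran from 5.68 through 6.39 to 7.25 in CTRL and from 4.30 through 4.71 to 4.79 in AAKO, again without overlap.

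Apoa4 rose by 3.88 ± 0.27 with the fast in CTRL liver (14.7-fold, limma adjusted p = 7.81e-13) and by 0.93 ± 0.27 in AAKO liver (1.90-fold, limma adjusted p = 0.00348), where fed and fasted arrays overlapped. The rise in AAKO was not called within wash batch 2 (0.63, limma adjusted p = 0.162). CL316243 was accompanied by a rise of 1.65 ± 0.27 in CTRL (limma adjusted p = 3.97e-05) and by 0.51 ± 0.27 in AAKO, which was not called (limma adjusted p = 0.159). Set between genotypes, Apoa4 was 11.2-fold lower in fasted AAKO liver (-3.48 ± 0.27, limma adjusted p = 7.09e-12) and 3.18-fold lower after CL316243 (-1.67 ± 0.27, limma adjusted p = 2.62e-05). The fed difference of -0.53 ± 0.27 was not called (limma adjusted p = 0.745). The fasted difference exceeded the fed difference by -2.95 ± 0.38 (limma adjusted p = 5.78e-07) and the CL316243 difference by -1.81 ± 0.38 (limma adjusted p = 0.000470). The CL316243 and fed differences of Apoa4 were not separated at the threshold (-1.13 ± 0.38, limma adjusted p = 0.0538). Within the wash batches the fasted Apoa4 difference was -3.07 and -3.89, and the CL316243 difference -1.45 and -1.94. In the order of group medians, fasted CTRL was followed by CL316243 CTRL, and these 2 groups did not overlap. They were followed by fasted AAKO, fed CTRL, CL316243 AAKO and fed AAKO, and from CL316243 CTRL downward each neighbouring pair overlapped.

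Markers of intestine were examined because APOA4 is abundant there. Of 7 enterocyte genes, Alpi, Lct and Cdx2 were well above background on 0 of 36 arrays, and Cdx1, Vil1 and Sis on 6, 9 and 11. Fabp2 was detected on all 36 and set the summed marker level, which ran from 5.87 to 6.84 in fasted CTRL and from 2.98 to 4.20 in fasted AAKO. Like Apoa4, Fabp2 was lower in fasted AAKO than fasted CTRL liver (-2.75). From fed to fasted liver it was higher in CTRL (0.80), as Apoa4 was, and lower in AAKO (-1.40), where Apoa4 was higher.

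**Figure D2:**
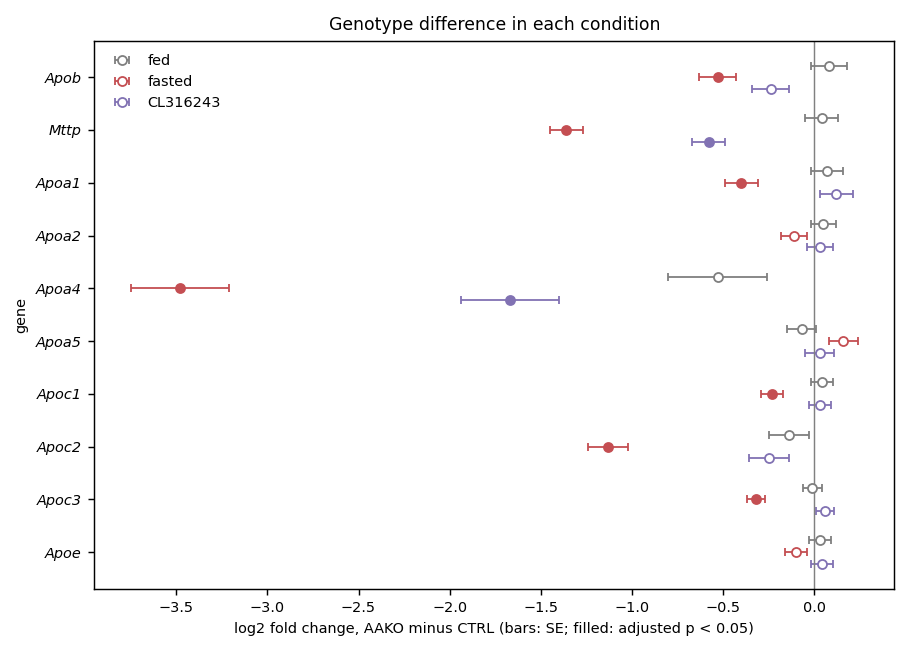
Difference AAKO minus CTRL of each gene in fed, fasted and CL316243 mice (log2 fold change ± SE, 6 arrays a group; filled points have a limma adjusted p under 0.05). All fed points are open, 7 fasted points are filled below 0, and the filled points after CL316243 are Apoa4 at -1.67 and Mttp at -0.58.

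Of the genes of lipoprotein lipase control, Apoc2 and Apoc3 were lower in fasted AAKO than fasted CTRL liver and Apoa5 was not called. Apoc2, which encodes the activator, had 7.70, 8.15 and 8.53 as lowest, median and highest level in fasted CTRL liver and 6.54, 7.0 and 7.34 in fasted AAKO liver. Its other groups lay close together, at 7.64, 7.95 and 8.08 in fed CTRL, 7.53, 7.81 and 7.92 in fed AAKO, 7.84, 7.93 and 8.15 in CL316243 CTRL and 7.56, 7.73 and 7.88 in CL316243 AAKO. Fasted AAKO was the lowest group and overlapped no other. The fasted genotype difference was -1.13 ± 0.11 (2.19-fold, limma adjusted p = 1.27e-09). It exceeded the fed difference by -0.99 ± 0.16 (limma adjusted p = 1.54e-05) and the CL316243 difference by -0.88 ± 0.16 (limma adjusted p = 9.32e-05). The CL316243 difference of Apoc2 was -0.25 (limma adjusted p = 0.110). Within the wash batches the fasted difference was -1.48 and -0.78, both called, and the excess of Apoc2 over the fed difference was -1.40 in batch 1 and -0.59 in batch 2, the latter not called (limma adjusted p = 0.0647). The dimmer Apoc2 probe gave -1.31 after the fast (limma adjusted p over all probes = 2.41e-10). With the fast alone, Apoc2 in CTRL liver changed by 0.22 and was not called (limma adjusted p = 0.124); without the fasted CTRL array that stood apart it was called, at 0.31 (limma adjusted p = 0.0229).

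Apoc3, which encodes an inhibitor of the lipase, was lower in fasted AAKO liver by a small amount with little spread. Its levels were 9.69, 9.76 and 9.80 in fasted CTRL and 9.37, 9.39 and 9.56 in fasted AAKO. The other 4 groups had medians of 9.75, 9.75, 9.75 and 9.84 and no array below 9.69, so fasted AAKO lay below every other array of the study. The fasted genotype difference was -0.32 ± 0.05 (1.25-fold, limma adjusted p = 1.83e-06). Within the wash batches it was -0.36 and -0.28, both called. A second Apoc3 probe gave -0.41 (limma adjusted p over all probes = 1.02e-06). The third, with intensities of 218 to 545 over the single arrays, went the other way by 0.35 (limma adjusted p over all probes = 0.0297). With the mean of all 3 probes as the value of Apoc3, the difference was -0.13 and not called (limma adjusted p = 0.105).

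Apoa5, the third gene of lipase control, followed another pattern. It was higher in fasted than in fed liver in both genotypes, by 0.46 ± 0.08 in CTRL (limma adjusted p = 2.01e-05) and by 0.69 ± 0.08 in AAKO (limma adjusted p = 6.67e-09). It was likewise higher after CL316243, by 0.56 ± 0.08 in CTRL (limma adjusted p = 6.69e-06) and 0.66 ± 0.08 in AAKO (limma adjusted p = 2.19e-07). Fed arrays ran from 8.43 through 8.71 to 8.76 in CTRL and from 8.52 through 8.57 to 8.71 in AAKO. Fasted arrays ran from 8.94 through 9.11 to 9.28 and from 9.14 through 9.28 to 9.39, and CL316243 arrays from 9.10 through 9.22 to 9.34 and from 8.93 through 9.23 to 9.51, CTRL first. The fed groups overlapped neither stimulated condition, and the 4 stimulated groups overlapped one another. A second Apoa5 probe, dimmer and well above background on all 36 arrays, gave 0.65 and 0.95 for the fast in CTRL and AAKO and 0.75 for CL316243 in AAKO, all called. In CTRL its CL316243 change was 0.25 and not called (limma adjusted p over all probes = 0.217), and it was higher after the fast than after CL316243 by 0.41 (limma adjusted p over all probes = 0.0226). For Apoa5 no genotype difference was called in any condition on either probe, and the fasted one was 0.16 ± 0.08 (limma adjusted p = 0.0997). Its difference between fasted and fed mice was 0.23 ± 0.11 (limma adjusted p = 0.124). Since fed mice form their own labelled experiment, condition and experiment cannot be told apart for this gene.

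Apoa1, the main protein of high-density lipoprotein, had 8.16, 8.34 and 8.41 as lowest, median and highest level in fasted CTRL liver and 7.82, 7.92 and 7.97 in fasted AAKO liver. Fed CTRL arrays gave 7.77, 7.98 and 8.23 and fed AAKO arrays 7.82, 8.02 and 8.35. CL316243 arrays gave 7.67, 7.84 and 8.22 in CTRL and, in AAKO, 7.87, 8.04 and 8.16. Here fasted CTRL was the high group, whereas fasted AAKO lay among the fed arrays. Apoa1 was 0.33 ± 0.09 higher in fasted than fed CTRL liver with overlapping arrays (limma adjusted p = 0.00192), and not called in AAKO (-0.14, limma adjusted p = 0.162). Within wash batch 1 the rise in CTRL was 0.26 and not called (limma adjusted p = 0.162). The fasted genotype difference of Apoa1 was -0.40 ± 0.09 (limma adjusted p = 0.000232), with -0.38 and -0.42 in the wash batches, both called. It differed from the fed difference by -0.47 (limma adjusted p = 0.00283) and from the CL316243 difference by -0.52 (limma adjusted p = 0.00115). Within wash batches 1 and 2, the first of these was -0.41 and -0.53 and not called (limma adjusted p = 0.129 and 0.0837). The second was -0.51 in wash batch 2 and not called (limma adjusted p = 0.109).

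Apoc1, Apoa2 and Apoe are among the brightest features of these arrays, and their shifts were small. Apoc1, whose product modulates lipoprotein enzymes and uptake, had medians of 10.60 in fasted CTRL and 10.38 in fasted AAKO, and its difference of -0.23 ± 0.06 was called (limma adjusted p = 0.00218). It was -0.32 in wash batch 1 and -0.14 in wash batch 2, where it was not called (limma adjusted p = 0.209). Apoa2 had medians of 10.22 and 10.13 and a difference of -0.11 ± 0.07 that was not called (limma adjusted p = 0.168). Apoe had 10.16 and 10.07 and -0.10 ± 0.06 (limma adjusted p = 0.164). With quantile normalization both were called at about the same size (-0.11, limma adjusted p = 0.0310, and -0.09, limma adjusted p = 0.0451). Their dimmer probes gave larger differences that were called, -0.17 for Apoa2 (limma adjusted p over all probes = 0.00880) and -0.37 for Apoe (limma adjusted p over all probes = 0.000412). The same order, with the dimmer probe showing the larger fasted difference, was seen for Apob, Apoc2 and the first 2 probes of Apoc3. It was not seen for Apoa5 (0.07 on the dimmer and 0.16 on the brighter probe), for Mttp (-0.08 and -1.36) or for the third probe of Apoc3. No spot of the 10 genes was saturated, and the part of the signal range in this order was not tested.

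The bright genes moved with the level of other bright genes on the array. Against the mean log2 level of the 20 brightest other genes, whose group medians ran from 10.33 in fasted AAKO to 10.55 in CL316243 AAKO, Pearson's r over the 36 arrays was 0.96 for Apoa2, 0.96 for Apoe, 0.87 for Apoc1, 0.73 for Apoc3 and 0.69 for Apob. It was 0.29 for Apoc2, 0.11 for Mttp, -0.03 for Apoa5, -0.13 for Apoa1 and -0.23 for Apoa4. These correlations are descriptions over arrays that share groups. Another measure had been tried before it, the level exceeded by 0.5% of probes on each array, and it was replaced after its correlations were seen to be lower: 0.55 for Apoa2, 0.53 for Apoe, 0.49 for Apoc1, 0.34 for Apoc3 and 0.25 for Apob. Both were chosen after seeing the data, and they did not give the same calls. With the 20 genes as a covariate, Apoa2 and Apoe were no longer called lower in fasted than fed AAKO liver (-0.04, limma adjusted p = 0.396, and -0.05, limma adjusted p = 0.289). With the 0.5% level as the covariate, both remained called (-0.16, limma adjusted p = 0.0248, and -0.16, limma adjusted p = 0.0174), and both were also called lower in fasted AAKO than fasted CTRL liver (-0.17, limma adjusted p = 0.0282, and -0.15, limma adjusted p = 0.0313). The fasted differences of Apoc1, Apoc3 and Apob were called with either covariate, at -0.18, -0.29 and -0.48 with the 20 genes and -0.29, -0.36 and -0.62 with the 0.5% level. The calls on Apoa2 and Apoe thus depended on the measure. With either covariate Apob was also called lower in AAKO after CL316243 (-0.29, limma adjusted p = 0.0149, and -0.37, limma adjusted p = 0.0110), which it was not without one (-0.24, limma adjusted p = 0.0864).

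**Figure D3:**
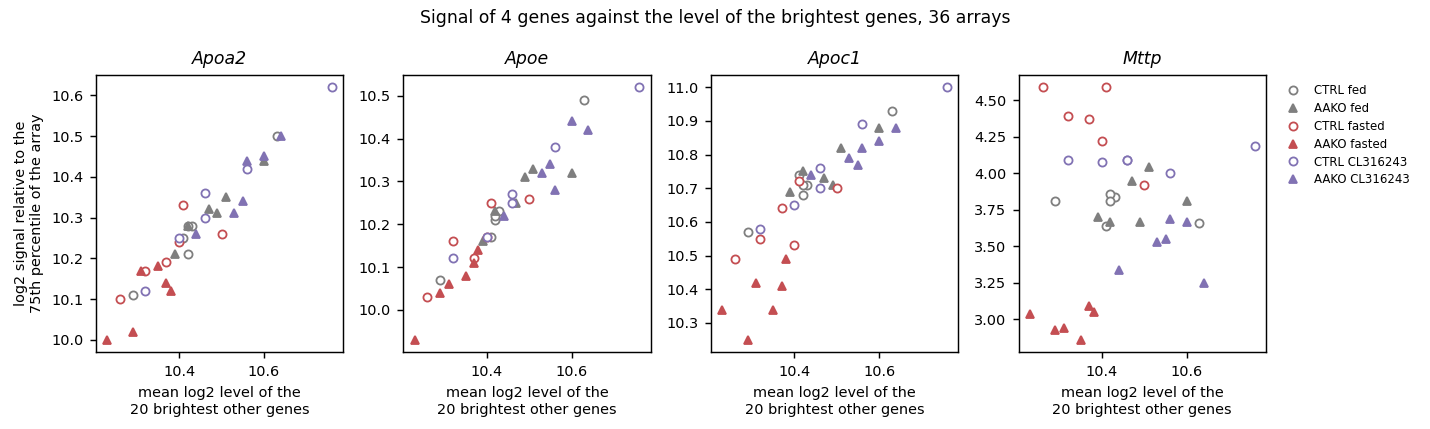
Signal of 4 of the genes on each of the 36 arrays (log2, vertical) against the mean log2 level of the 20 brightest other genes on the same array (horizontal). Colour gives the condition, and the shape and fill of the marker give the genotype. Apoa2 and Apoe follow the bright level closely (r of 0.96 each), Apoc1 less so (0.87) and Mttp does not (0.11); the measure replaced an earlier one that gave lower correlations.

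Against fed mice of the same genotype, the 10 genes moved in different numbers. In fasted CTRL liver 4 were higher (Apoa4, Mttp by 0.58, Apoa5 and Apoa1) and 0 were lower, beside 43.8% of all genes called and 19.7% called higher. In fasted AAKO liver 9 were called, beside 63.6% of all genes: Apoa4 and Apoa5 were higher (27.5% of all genes were) and 7 were lower (36.1% of all genes were). The lower ones were Mttp by 0.82, Apoc2 by 0.77, Apob by 0.63, Apoc1 by 0.39, Apoc3 by 0.33, Apoa2 by 0.21 and Apoe by 0.21 on the log2 scale. For 8 of the 10 the fed and fasted AAKO arrays did not overlap, as for 42.7% of all genes. After CL316243, 3 were higher in CTRL liver (Apoa4, Apoa5 and Mttp by 0.32), beside 23.1% of all genes called and 10.4% called higher. In AAKO liver Apoa5 was higher and Mttp lower by 0.29, beside 31.4% called, 15.5% higher and 15.9% lower. The Mttp calls after CL316243 were not made within wash batch 2 in either genotype (0.26 in CTRL, limma adjusted p = 0.0983, and -0.05 in AAKO, limma adjusted p = 0.824). In wash batch 1 Mttp was 0.38 in CTRL and not called (limma adjusted p = 0.137), and -0.47 in AAKO and called. The fasted and CL316243 comparisons share the fed arrays.

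**Figure D4:**
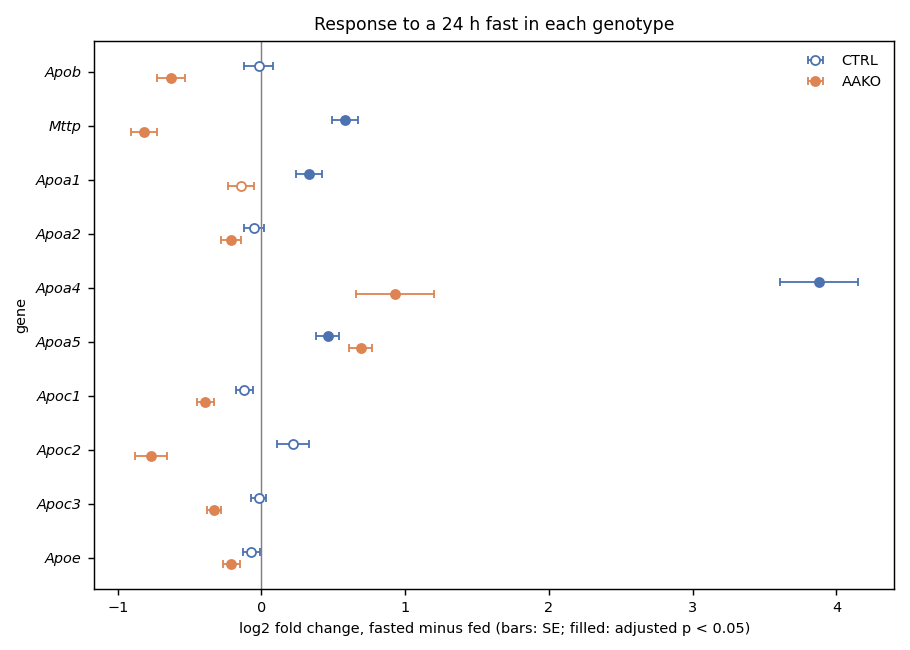
Change from fed to fasted liver for each gene in CTRL and AAKO mice (log2 fold change ± SE, 6 arrays a group; filled points have a limma adjusted p under 0.05). Mttp is filled on opposite sides of 0 in the genotypes (0.58 and -0.82), Apoa4 is at 3.88 in CTRL and 0.93 in AAKO, and Apoa5 is above 0 in both.

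Fasted and CL316243 mice come from 1 labelled experiment. In CTRL liver, Apoa4 (2.23), Apoa1 (0.41) and Mttp (0.26) were higher after the fast and Apoc1 was lower (-0.16, limma adjusted p = 0.0424), beside 37.1% of all genes called, 17.8% higher and 19.3% lower. The Mttp call was kept under 21 of 28 alternatives. With the mean of all probes Mttp was -0.16 (limma adjusted p = 0.430). Within wash batch 1 it was 0.21 and not called (limma adjusted p = 0.381). The Apoc1 call was kept under 10 of 28 alternatives. It was lost without the fasted CTRL array that stood apart (-0.15, limma adjusted p = 0.0762) and without some other single arrays. With quantile normalization Apoc1 was -0.01 (limma adjusted p = 0.844), and with the authors' table -0.06 (limma adjusted p = 0.359). In AAKO liver 7 of the 10 were lower after the fast and 0 higher, beside 60.0% called and 34.1% lower: Apoc2 by 0.70, Mttp by 0.53, Apob by 0.52, Apoc1 by 0.42, Apoc3 by 0.41, Apoa2 by 0.27 and Apoe by 0.26 on the log2 scale. The calls on Apoa2 and Apoe were lost with quantile normalization (-0.04 and -0.04) and with the 20 bright genes as a covariate (-0.03 and -0.05), and with the authors' table their values were 0.04 and 0.05. Between fasted and fed AAKO liver both were also no longer called with that table (-0.01 and -0.01) or that covariate (-0.04 and -0.05).

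The test of whether the genotype difference depends on the condition cancels an experiment effect common to both genotypes. Between fasted and fed mice it was called for 7 of the 10, all in the lower direction, beside 33.6% of all genes and 18.6% lower. Those 7 were Apoa4, Mttp, Apoc2, Apob, Apoa1, Apoc3 (-0.31) and Apoc1 (-0.27). Between CL316243 and fed mice it was called for Mttp, beside 10.9% and 4.64%. Between fasted and CL316243 mice it was called for 6, all lower, beside 31.8% and 18.5%. Those were Apoa4, Apoc2, Mttp (-0.79), Apoa1, Apoc3 (-0.39) and Apoc1 (-0.27). With the mean of all probes, which adds the dim probe, Mttp was -0.22 and not called (limma adjusted p = 0.456). Apoc1 was not called with quantile normalization (-0.14, limma adjusted p = 0.0921) or the authors' table (-0.16, limma adjusted p = 0.0508), nor between fasted and fed mice with quantile normalization (-0.16, limma adjusted p = 0.0579). With the mean of all probes, Apoc3 was -0.14 between fasted and fed mice and not called (limma adjusted p = 0.268), and Apoe was called at -0.25 (limma adjusted p = 0.0150).

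The same arrays were also compared within slides, since 4 slides held both genotypes of a condition. The fasted difference was below 0 on 4 of 4 slides for each of the 7 called genes, from -4.35 to -2.39 for Apoa4, from -1.73 to -1.17 for Mttp and from -1.98 to -0.42 for Apoc2. The sign on slides did not separate called from uncalled genes. The uncalled Apoa2 (-0.16 to -0.03) and Apoe (-0.17 to -0.03) were also below 0 on 4 of 4, and Apoa5 was above 0 on 4 of 4. After CL316243, Apoa4 ran from -1.71 to -1.08 and Mttp from -0.93 to -0.42 over 4 slides. The uncalled Apoc2 (-0.41 to -0.11) and Apoa5 (-0.30 to -0.03) were below 0 on 4 of 4 there too, and Apoa1 was above 0 on 4 of 4.

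Other genes of lipoprotein metabolism were counted from lists that hold none of the 10. Of 21 genes of VLDL assembly and export, 10 were lower and 2 higher in fasted AAKO than fasted CTRL liver, with a list median of -0.13, beside 27.3% and 21.9% of all genes called lower and higher and a median of -0.03. The number called in either direction is near the 49.2% of all genes. The largest changes were those of A1cf (-2.46 ± 0.14, limma adjusted p = 8.40e-15), whose product assists Apob RNA editing, Ces1d (-1.80), a carboxylesterase that mobilises stored triglyceride, Cideb (-1.03), a lipid droplet protein that lipidates VLDL, and Sar1b (-0.88), a GTPase of the transport vesicles. A1cf ran from 4.58 to 5.38 in fasted CTRL and from 2.26 to 2.72 in fasted AAKO liver, so these groups did not overlap. After CL316243, 8 of the 21 were lower and 4 higher, both above the 11.6% and 13.0% of all genes called lower and higher. The largest called changes were those of Lpcat3 (-1.36), which remodels phospholipids, A1cf (-1.22), Ces1d (-0.94) and Sort1 (-0.66). In fed mice 0 of the 21 were called by limma.

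**Figure D5:**
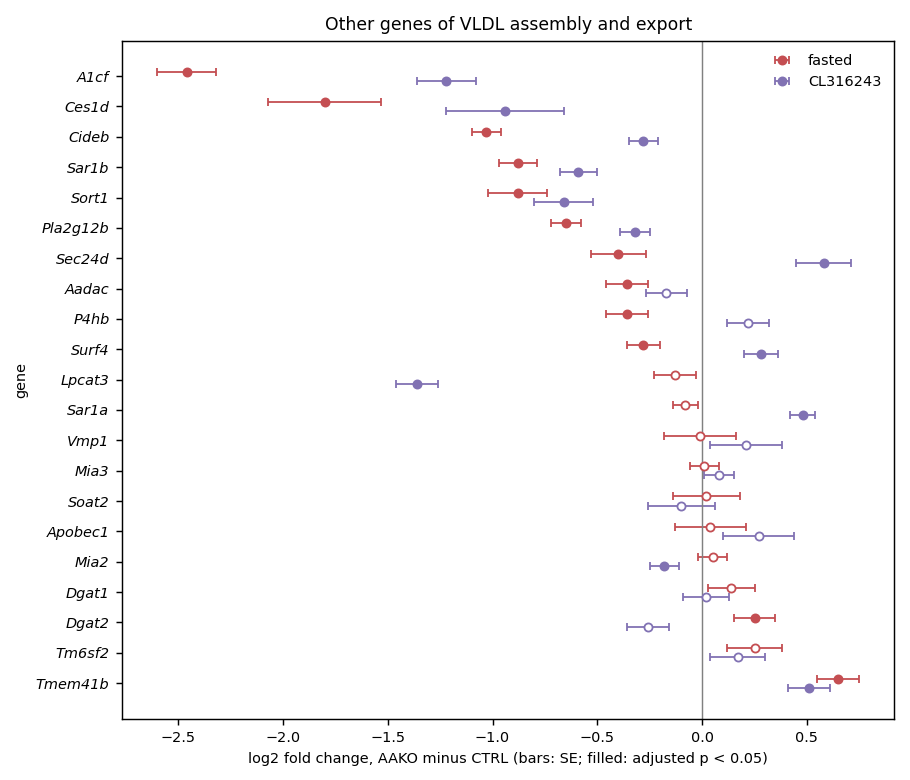
Difference AAKO minus CTRL (log2 fold change) of the 21 listed genes of VLDL assembly and export in fasted and CL316243 mice; filled points have a limma adjusted p under 0.05. A1cf is lowest after the fast (-2.46) and Lpcat3 after CL316243 (-1.36).

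Of 10 other apolipoprotein and particle genes, 6 were lower and 0 higher in fasted AAKO liver, with a median of -0.31: Apon (-1.55), Apoc4 (-0.86), which lies beside Apoc2, Apof (-0.74) and Pon1 (-0.72) led. After CL316243, Pon1 (-0.33) and Apoh (-0.18) were lower. Of 15 receptor and remodelling genes, 5 were higher and 2 lower after the fast. They included Abca1 (1.34), which exports cholesterol to APOA1, Gpihbp1 (0.70) and, lower, Lrp1 (-0.82). After CL316243, 2 were higher, Abca1 (0.89) among them, and 0 were lower. The numbers called in either direction in both lists after the fast are near the 49.2% of all genes called. By direction, 27.3% of all genes were called lower there and 21.9% higher. The 6 lower of 10 and the 5 higher of 15 were above the share for their direction, and the 0 higher of 10 and 2 lower of 15 below. After CL316243, 11.6% of all genes were called lower and 13.0% higher. The lists were not compared by a test.

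Of 18 transcription regulators with a part in these pathways, 6 were higher and 7 lower in fasted AAKO liver, beside 21.9% and 27.3% of all genes. Nr1d1 (2.18), a circadian repressor, and Foxo1 (1.23), which is known to act on Mttp and Apoc3, were higher, and Nr1h4 (-1.23), the bile acid receptor, and its target Nr0b2 (-1.09) were lower. After CL316243, 5 were lower and 1 higher, beside 11.6% and 13.0% of all genes. The largest called changes were those of Ppara (-1.22), the fatty acid receptor, Creb3l3 (-0.97), Rora (-0.55) and Nr1h4 (-0.52). Creb3l3 encodes CREBH, an activator of Apoa4 and Apoc2. In fed mice limma called 0 genes in each of these 4 lists.

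Markers of other cell types moved with the fasted genotype difference in part. All 7 hepatocyte markers on the array were well above background on all 36 arrays, and their summed level had group medians of 12.51 to 12.82. In fasted AAKO against fasted CTRL liver, 3 of these 7 were called lower and 1 higher. In the same comparison 3 of 6 neutrophil and 3 of 6 endothelial markers were higher and 0 lower, 3 of 6 stellate markers were higher and 1 lower, 1 of 8 Kupffer cell markers was higher and 0 lower, and 2 of 6 cholangiocyte markers were lower and 0 higher. Of 6 adipocyte markers 1 was higher and 2 lower, and of the 3 pancreas markers tested 1 was higher and 1 lower. Of all genes tested, 21.9% were called higher and 27.3% lower there. The summed pancreas level ran from 0.90 to 2.18 in fasted CTRL and from 2.44 to 3.28 in fasted AAKO. The summed neutrophil level ran from 1.70 to 6.21 in fasted CTRL and from 3.37 to 6.88 in fasted AAKO, and the stellate level from 6.40 to 6.72 and from 6.78 to 7.18. The part of these cells in the results for the 10 genes was not tested.

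The genes lie in clusters. Apoa1, Apoc3, Apoa4 and Apoa5 share a stretch of chromosome 9, and Apoe, Apoc1 and Apoc2 one of chromosome 7. Over the 36 arrays, the 9 pairs of members on a shared chromosome had a median Pearson's r of 0.38 and the 36 other pairs one of 0.39, so the medians of the 2 kinds of pair were close. Apoa2 and Apoe, which lie on different chromosomes, were most alike (0.95, and 0.91 after the group means were subtracted). Both also followed the level of the 20 brightest other genes (0.96 each). Apoc2 and Mttp had 0.84, which fell to 0.25 after the group means were subtracted. All pairs share arrays and groups.

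Among the tested genes outside the set, the closest in pattern to Apoa4 was an array feature without a gene symbol, with its probe at chr19:5845052-5845111 and r of 0.991 over 36 arrays, followed by Gm10680 (0.987) and Sprr1a (0.981). Gm10680 had group means of -3.47 and -3.89 in fed CTRL and AAKO, 0.44 and -3.02 fasted, and -2.02 and -3.46 after CL316243. Its probe, printed above, lies 435 bases from the Apoa4 probe on the opposite strand. For Mttp the closest were Hsd17b4 (0.961), a peroxisomal oxidation enzyme, Atp9a (0.948) and 5031439G07Rik (0.946). For Apoc2 they were led by Cops6 (0.939), for Apob by Rhox8 (0.926), for Apoc3 by Zfp420 (0.925), for Apoa5 by Ogfr (0.904) and for Apoa1 by Mug2 (0.810). Apoc1 was closest to Gstp2 (0.948), Apoe to Zfp628 (0.965) and Apoa2 to Exosc2 (0.951), with Rn18s, a ribosomal RNA, at 0.948 next. These neighbours are bright features too: Exosc2 and Rn18s are among the 20 brightest other genes. Gstp2 and Zfp628 had means of 9.48 and 9.98 in fasted CTRL liver. The level of those 20 genes had r of 0.96 with Apoa2 and Apoe and 0.87 with Apoc1. Likeness beyond that shared level was not tested.

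RefSeq promoters on GRCm38.p6, from 250 bases before to 50 after each start site, were given for 8 of the 10 genes, in 12 entries. They were searched on both strands for AGGTCA, a nuclear receptor motif held by 16.3% of the 32851 promoters of that length, CAAAGTCCA of the HNF4A type (0.475%), TGACG, the core of cAMP and CREBH type sites (20.8%), and CACGTG, the E box (7.15%). Apoc2 and Mttp are shown, since both were lower in fasted AAKO than fasted CTRL liver and at least 1 of the motifs was found; the 250 bases before the start site are given 5′ to 3′ on the gene's strand, with capitals for motif letters.
Apoc2 (chr7:19677942-19678191, minus strand): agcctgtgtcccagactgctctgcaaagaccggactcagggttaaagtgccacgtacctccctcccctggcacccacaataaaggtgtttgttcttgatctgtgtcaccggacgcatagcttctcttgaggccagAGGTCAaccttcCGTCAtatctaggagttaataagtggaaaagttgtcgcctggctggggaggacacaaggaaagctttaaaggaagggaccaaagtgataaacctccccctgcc
Mttp (chr3:138143419-138143668, minus strand): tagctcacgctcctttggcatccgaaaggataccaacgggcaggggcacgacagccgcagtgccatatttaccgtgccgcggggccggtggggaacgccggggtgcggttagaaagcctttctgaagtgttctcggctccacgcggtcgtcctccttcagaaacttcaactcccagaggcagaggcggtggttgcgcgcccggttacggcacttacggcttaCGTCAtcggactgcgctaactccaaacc
The Apoc2 stretch holds AGGTCA at 115 bases before the start site and TGACG on the opposite strand at 103, with another AGGTCA after the start. That of Mttp holds TGACG on the opposite strand at 28 bases before the start. The windows of Apoa4, Apoa1 and Apob, which also were lower in fasted AAKO liver, hold none of the 4 motifs. Of the genes not called between genotypes, Apoa2 holds TGACG at 23 bases before the start site of one entry and AGGTCA on the opposite strand at 238 of another, and Apoa5 holds CACGTG in both of its entries. The motifs were thus found in genes with and without a called difference. A match here describes letters only. The matches shown do not overlap one another.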

How the data were processed

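The deposited files were single-colour Agilent scanner outputs of liver RNA (TRIzol, 200 ng, Cy3), made with Feature Extraction 10.10.1.1 per the submitters' processing notes. They hold a processed signal per spot, a background-subtracted intensity by the authors' scanner software, and outlier and above-background marks, as 0 or 1 per the file headers. From the intensity, log2 was taken, outlier-marked spots were dropped, spots of a probe averaged and the array's 75th percentile over non-control probes subtracted. A gene was read from its probe with the highest mean. Genes well above background on at least 5 of 6 arrays of 1 group were tested (24097 of 37061) with limma 3.58.1 in R 4.3.3, on 6 group means and the wash batch, two-sided, with Benjamini-Hochberg adjustment over all genes. The deposited value table holds the authors' log2 values of 36898 probes; they share 1 distribution within each group (r of 0.99957 to 0.99981 with the arrays), have group medians of 6.88 to 7.01, and the choice of probes is not given in the sources used here. It served as an alternative.

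The 10 genes, the lists and the motifs were chosen with earlier results of these data known. Named are all 10 genes, up to 4 called genes per list and comparison with the largest change, and the 3 closest genes in pattern; 1 listed gene and 1 motif are not reported here. The fit was tested on simulated data. Shared replicate numbers were not used to pair the arrays in the main fit. Correlations of same-numbered deviations ran from -0.22 to 0.36. Between fed AAKO and fed CTRL they ran from 0.01 to 0.36, and 3 of 6 arrays matched their own number best. The number of arrays, 6 a group, limits the precision. Alternatives were other normalizations, background correction, probe rules, filters, batch and slide terms, arrays left out and, added after seeing the data, 2 measures of the brightest signals as covariates.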

Additional observations from a re-analysis of the deposited data

Results flagged for a closer look

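In all, 2 arrays lay far from the rest of their group on 1 of the 10 genes, among 60 sets of 6 arrays examined, where chance gives about 1 in 20. Replicate 1 of fed CTRL had an Apob level of 7.12, and the other 5 arrays ran from 7.66 to 7.91. Replicate 2 of fed CTRL had an Apoc3 level of 9.94, and the other 5 ran from 9.69 to 9.75. No explanation was tested.

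The genotype difference (AAKO minus CTRL) differed between conditions by the limma interaction test in 14 cases, all toward lower values in AAKO. Between fasted and fed mice the differences were -2.95 for Apoa4, -1.40 for Mttp, -0.99 for Apoc2, -0.61 for Apob, -0.47 for Apoa1, -0.31 for Apoc3 and -0.27 for Apoc1. Between fasted and CL316243 mice they were -1.81 for Apoa4, -0.88 for Apoc2, -0.79 for Mttp, -0.52 for Apoa1, -0.39 for Apoc3 and -0.27 for Apoc1. Between CL316243 and fed mice the difference was -0.61 for Mttp. For fasted against fed mice these were 7 of the 10 genes, beside 33.6% of all genes called and 18.6% called lower. For fasted against CL316243 mice they were 6 of 10, beside 31.8% and 18.5%. For CL316243 against fed mice it was 1 of 10, beside 10.9% and 4.64%.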

How the results depend on the processing

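Over 1920 values of the 10 genes under other settings, 1831 stayed on their side of the threshold (118 of these, none of them called, changed sign), 59 lost a call, 26 gained one and 4 reversed. With each array left out in turn, 1785 of 1800 stayed on their side, 46 of them uncalled values that changed sign. The fasted genotype count was 5 to 9 of 10 over the settings run. The CL316243 to fed genotype difference, 1 gene at first, was called for 2 genes with normexp, quantile normalization, the percentile over detected probes, the authors' table, genes well above background on all arrays or the compared groups alone, and for 0 with the mean of all probes and within wash batch 2; leaving out arrays gave 1 to 2 (2 without CTRL fed 2 or 3 or CTRL CL316243 3 or 4, through Apoa4). The genotype count after CL316243 was 4 with quantile normalization and the authors' table. CL316243 against fed in AAKO was 1 with the mean of all probes and within wash batch 2, and 1 to 2 with arrays left out (1 without AAKO fed 5, through Mttp). Fasted against CL316243 in CTRL was 2 with the compared groups alone, slide as a factor, the 20 bright genes as a covariate and within wash batch 1, and 2 to 5 with arrays left out (2 without CTRL fasted 4). The fasted to fed genotype difference was called for 4 genes in wash batch 1 alone and for 2 in wash batch 2 alone, where the fasted to CL316243 difference was called for 3, each with fewer arrays. Reversed were Apoa2 (0.04) and Apoe (0.05), fasted against CL316243 in AAKO, with the authors' table, and, in CTRL, Apoc3 (0.11) with quantile normalization and Mttp (-0.16) with the mean of all probes; the cause was not tested. With the replicate block, Apoc1 fasted against CL316243 in CTRL was -0.16 with a limma adjusted p of 0.0526, and no other call of the 10 changed. The 2 bright measures, added after seeing the data, changed Apoa2 and Apoe in opposite ways, as given above. The slide correlation was -0.0101. Array number and the dim Mttp probe limit what can be seen.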
